A study of Homo sapiens with 8 samples.

Results

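LINC genes are long intergenic non-coding RNA genes whose symbol is LINC followed by digits. The expressed LINC genes described here were chosen by a readout: every gene with such a symbol and at least 40 reads summed over all lanes of the series. This gave 104 genes of the 1876 LINC genes in the count files. Of the others, 478 had 1 to 39 reads and 1294 had none, so 104 of the 582 detected LINC genes passed the minimum. The RNA came from TIB153 and CUTLL1 (CUTTL1 in the labels), a pair of established human T-cell acute lymphoblastic leukemia (T-ALL) lines. Cells of each line received 1 µM PKF118-310 for 24 h or served as controls. PKF118-310 is a small molecule that keeps β-catenin from binding TCF transcription factors, the last step of canonical Wnt signaling. The 4 groups were CUTLL1 with PKF118-310, CUTLL1 control, TIB153 with PKF118-310 and TIB153 control. Each group was 1 library sequenced in 2 lanes, so values within a line have no replicate error, and the labels name no separate cultures.

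LINC genes are transcribed and often spliced and polyadenylated like messenger RNAs, but most have no known protein product. They are usually expressed at low levels and in fewer cell types than protein-coding genes. Some act on a neighboring gene of the same chromosome, some bind proteins or microRNAs elsewhere in the cell, and for most no function is known. Many start close to the start of a protein-coding gene on the other strand, and in T cells several are part of lineage-specific expression programs.

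The libraries held between 7609427 and 8140391 counts, and all 10 T-lineage markers were detected in each. Defining markers of B, myeloid, erythroid and epithelial cells were at or near 0, apart from the B-cell receptor subunit gene CD79A at 10.5 to 107 CPM (counts-per-million, scaled to the library total). The fibroblast markers summed to between 2.63 and 4.88 CPM. The lanes of each library differed by no more than sampling noise over all genes, with a chi-square per degree of freedom between 0.990 and 1.02. Over the LINC genes of the CUTLL1 control library alone it was 1.35 (p = 0.0208, chi-square test, unadjusted).

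To show the regulatory sequence next to the LINC genes that the results turn on, the promoter window from 250 bases before to 50 bases after the RefSeq start was taken for each gene where RefSeq had one. This gave 76 of the 104 genes on GRCh38.p14. The windows were searched on both strands for the TCF/LEF motif CTTTGAT, because PKF118-310 targets the β-catenin/TCF pair, and for the AP-1 motif TGANTCA, the cyclic AMP response element TGACGTCA and the ATF4/CEBP composite TGATGCAA. None of these motifs holds another. The AP-1 motif was present in LINC00963, the LINC gene with the smallest p across the lines, and 2 times in LINC00339, which was higher with PKF118-310 in TIB153. The TCF/LEF motif was present in LINC00638, also higher with PKF118-310 in TIB153. These 3 windows were picked for a match in a gene that was higher with PKF118-310. They are printed 5′ to 3′ on the strand of the gene, all on the plus strand, with the motif letters in capitals. The window of LINC00963 lies at chr9:129488410-129488709, inside the span the count files give to the gene. That of LINC00339 lies at chr1:22024941-22025240, and that of LINC00638, named VESTAR in RefSeq, at chr14:104820951-104821250.
LINC00963: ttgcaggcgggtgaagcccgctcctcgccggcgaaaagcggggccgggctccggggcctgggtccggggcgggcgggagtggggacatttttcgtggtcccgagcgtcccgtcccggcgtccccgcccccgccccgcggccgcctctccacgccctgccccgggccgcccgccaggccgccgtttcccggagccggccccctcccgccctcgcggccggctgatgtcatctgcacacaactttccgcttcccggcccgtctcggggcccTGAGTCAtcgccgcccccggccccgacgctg
LINC00339: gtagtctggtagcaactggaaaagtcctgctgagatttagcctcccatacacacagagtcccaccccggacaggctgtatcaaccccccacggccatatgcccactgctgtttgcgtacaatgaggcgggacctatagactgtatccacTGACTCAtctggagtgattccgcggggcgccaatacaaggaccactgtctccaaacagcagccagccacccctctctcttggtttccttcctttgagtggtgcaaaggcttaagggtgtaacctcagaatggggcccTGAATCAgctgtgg
LINC00638: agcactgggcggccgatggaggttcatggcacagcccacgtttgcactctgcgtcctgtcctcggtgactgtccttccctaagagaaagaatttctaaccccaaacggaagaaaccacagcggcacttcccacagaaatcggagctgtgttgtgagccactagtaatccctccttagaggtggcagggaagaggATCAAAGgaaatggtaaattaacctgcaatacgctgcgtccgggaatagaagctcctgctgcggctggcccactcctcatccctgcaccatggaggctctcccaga

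The AP-1 letters TGAGTCA of LINC00963 begin 19 bases after the start. Over the windows of expressed LINC genes, the TCF/LEF motif was found in 3 (3.95%), against 2.62% of all 35116 RefSeq windows and 1.47% of the 9511 windows of tested genes. The 3 were LINC00638, LINC00672 and LINC01534. The AP-1 motif was found in 4 windows (5.26%, against 7.71% of all and 4.08% of tested genes), namely LINC00339, LINC00963, LINC01163 and LINC01215. The cyclic AMP response element was found in 2 (2.63%, LINC00265 and LINC00630), against 1.85% of all and 3.42% of tested genes, and the ATF4/CEBP composite in 0 of the 76, against 0.866% and 0.357%. The 3 genes with a TCF/LEF match differed in their log2 ratios of PKF118-310 over control: LINC00638 gave 0.19 in CUTLL1 and 1.48 in TIB153, LINC00672 gave 1.19 and 0.19, and LINC01534 gave 0.63 and 0.25. None of these 3 passed the test across lines. Among the genes with an AP-1 match, LINC00339 gave 0.09 in CUTLL1 and 1.33 in TIB153, and LINC00963 gave 1.62 and 2.48. LINC01163 gave -4.14 and 0.57, with 0 treated counts in CUTLL1, and LINC01215 gave -0.39 and 0.61. Of the other genes past the test across lines, LINC01012, LINC01232, LINC01341, LINC01578 and LINC02482 held none of the motifs searched, and LINC01410 had no window.

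The expressed LINC genes together took 24974 counts, 0.0792% of all counts in the series. Their reads summed over the libraries ranged from 40 to 1384 per gene with a median of 128.5, and 10 genes held 37.6% of them. The median level was 4.02 CPM, against 40.6 CPM for protein-coding genes with at least 40 reads. The 10 highest, with mean levels between 20.9 and 43.8 CPM, were LINC01578, LINC00641, LINC01128, LINC02210, LINC00205, LINC01215, LINC01963, LINC00909, LINC01184 and LINC00665. LINC01578, named CHASERR in RefSeq, led them. With CPM divided by kilobases of exon (RPKM, computed for the 98 genes whose coordinates matched the annotation), the order changed. LINC01248 came first at 10.4 RPKM on average, followed by LINC01215 at 9.84 and LINC02001, the small nucleolar RNA host gene SNHG30, at 8.47 RPKM. LINC01248, with 468 exonic bases, lay at 18.8 RPKM with PKF118-310 and 22.2 in control CUTLL1. In TIB153 it lay at 0.787 RPKM with PKF118-310 and 0 in control. LINC01578 lay at 8.12 RPKM and the median over the 98 genes was 1.58 RPKM.

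The genes closest to the minimum show what the limit of 40 reads separated. LINC00921 was just inside, at 9 counts with PKF118-310 and 9 in control CUTLL1, and 17 with PKF118-310 against 5 in control TIB153. LINC00173, LINC00869 and LINC00920 followed with 41 reads each. Just outside were LINC01138 with 39 reads, LINC01307 with 38, and LINC00652 and LINC01088 with 37 each. Of the 104 genes, 68 had at least 10 counts in every library and 4 had none in at least 1 library. A gene that is high in 1 group only could therefore pass through that group alone, and counts over the 104 genes are descriptions. They are not independent support for a difference.

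To find whether LINC genes responded to PKF118-310, treated cells were compared with control cells across both lines. In that comparison 7 of the 104 rose, none fell, and 97 did not pass the threshold (edgeR quasi-likelihood test with line as a block, adjusted p under 0.05 over all 13079 genes with at least 40 reads, n = 2 lines). The share of all tested genes that rose was 6.25% and the share that fell was 6.90%, so the 7 genes (6.73%) lay near the background. Over the 7578 genes with no more reads than the most abundant LINC gene, a limit chosen after the data were seen, 6.04% rose and 3.07% fell. The median log2 change of the LINC genes was 0.24, against -0.0012 for all tested genes and 0.08 over those 7578 genes. At an unadjusted p under 0.05, 16 LINC genes were higher and 3 were lower by edgeR. By the same limit 1840 of all 13079 tested genes were higher and 1959 lower. The share of LINC genes that were higher thus lay near that of all tested genes, and the share that were lower lay under it. The unadjusted shares were not taken over the 7578 genes of that read range. DESeq2 called 0 rises and 0 falls among the LINC genes after adjustment, gave no adjusted p for 79 of them, and had 4 higher and 0 lower at an unadjusted p under 0.05. Over all genes 818 rose and 902 fell. Scaling by library totals alone gave 873 rises and 579 falls. Without the 1st lanes 2 LINC genes rose and 1 fell: LINC00963 remained past the threshold and the other 6 did not, and without the 2nd lanes LINC01410 did not. Leaving the line out of the fit put the adjusted p of all 7 between 0.714 and 0.746.

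LINC00963 (chr9:129483450-129513686 on hg38, plus strand, annotated as a processed transcript) had the smallest p of the 7. It gave 21 counts with PKF118-310, against 6 in control, in CUTLL1 and 106 against 17 in TIB153. Both treated libraries lay above both control libraries. The log2 change across lines was 2.24 ± 0.43 (SE, n = 2 lines; adjusted p = 0.0064 by edgeR). Its level was 2.63 CPM with PKF118-310 and 0.788 CPM in control CUTLL1, and 13.0 CPM with PKF118-310 and 2.18 CPM in control TIB153. LINC00963 shares no exonic base with another annotated gene. The nearest protein-coding gene, the N-terminal methyltransferase gene NTMT1, is 95.2 kb away.

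LINC01232, which overlaps the transmembrane protein gene TM9SF2 on the opposite strand of chromosome 13, gave 52 counts with PKF118-310 and 24 in control CUTLL1, and 65 with PKF118-310 against 11 in control TIB153. Its log2 change across lines was 1.64 ± 0.42 (SE; edgeR adjusted p = 0.024). LINC01012, on chromosome 6 with the histone gene HIST1H2BL as its nearest protein-coding neighbor, gave 70 counts with PKF118-310 against 37 in control CUTLL1, and 83 with PKF118-310 against 23 in control TIB153. The change was 1.24 ± 0.35 (edgeR adjusted p = 0.032). For both genes the treated libraries exceeded both controls.

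The 3 next genes, like LINC00963, had few reads in control cells. LINC02482 gave 20 counts with PKF118-310 and 4 in control CUTLL1, and 32 with PKF118-310 against 10 in control TIB153, a log2 change of 1.78. LINC01410 gave 14 counts with PKF118-310 and 4 in control CUTLL1, and 27 with PKF118-310 against 5 in control TIB153, a change of 2.02. LINC01341 gave 31 counts with PKF118-310 and 9 in control CUTLL1, and 65 with PKF118-310 against 24 in control TIB153, a change of 1.44. Their adjusted p by edgeR lay between 0.031 and 0.042. In the 1st and 2nd of these both treated libraries exceeded both controls, and in LINC01341 the same held, with 31 counts as the lowest treated value and 24 as the highest control value.

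LINC01578 (CHASERR, chr15:92882706-92899701, plus strand) was the only one of the 10 most abundant LINC genes to pass the test. CHASERR is known from mouse and human work as a regulator in cis of the adjacent chromatin remodeler gene CHD2, whose output it restrains. It gave 469 counts with PKF118-310 and 317 in control CUTLL1, and 375 with PKF118-310 against 223 in control TIB153. Its change of 0.53 ± 0.16 (SE, edgeR adjusted p = 0.043) was the smallest of the 7. CHD2 begins 0.488 kb downstream on the same strand. It gave 2156 counts with PKF118-310 and 1093 in control CUTLL1, and 1786 with PKF118-310 against 1158 in control TIB153, and rose too (log2 change 0.68 ± 0.13, SE, edgeR adjusted p = 0.0065). Thus the RNA of both genes of this pair was higher in treated cells of both lines. Reads that continue across the gap between them were not examined.

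**Figure D1:**
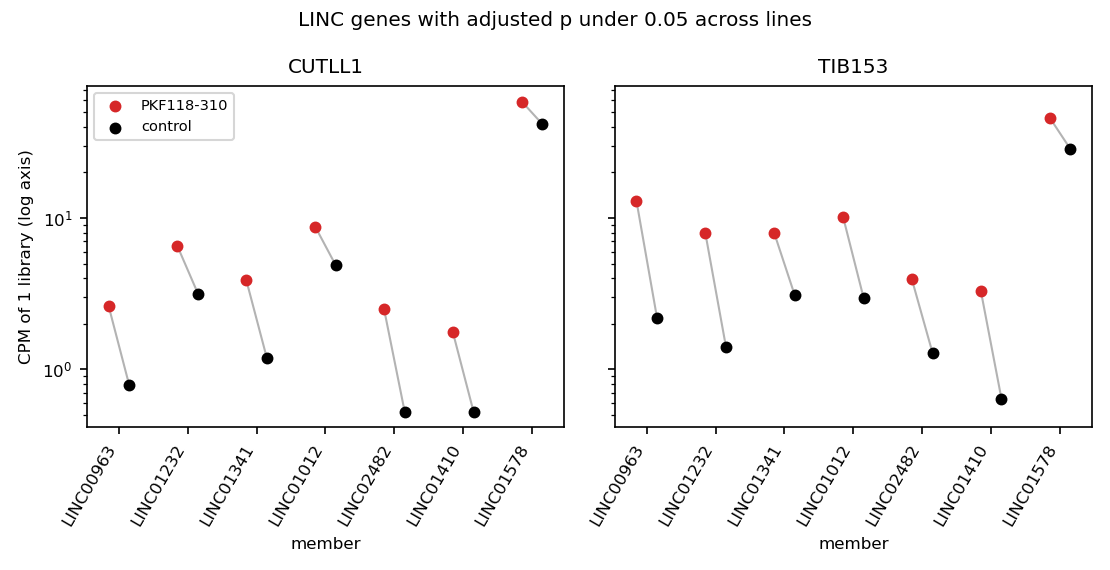
Level of the 7 LINC genes that passed the test across lines, in CPM on a log axis, with CUTLL1 on the left and TIB153 on the right. Each point is 1 library, red for PKF118-310 and black for control, and a line joins the pair of a cell line; every red point lies above its black point, and LINC00963 in TIB153 (13.0 against 2.18 CPM) spans the widest distance.

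Genes just short of the threshold included 2 higher and 1 lower in treated cells. LINC01089 gave 169 counts with PKF118-310 and 115 in control CUTLL1, and 234 with PKF118-310 against 107 in control TIB153 (0.72 ± 0.23, edgeR adjusted p = 0.051). It shares 41.7% of its exonic bases with the small GTPase gene RHOF on the same strand and 48.7% with genes on the opposite strand, so its counts are uncertain. LINC01355 gave 70 counts with PKF118-310 against 32 in control CUTLL1, and 59 with PKF118-310 against 25 in control TIB153 (1.06 ± 0.33, edgeR adjusted p = 0.052). LINC01963 was lower in treated cells of both lines, with 136 counts against 160 in control CUTLL1 and 156 against 277 in control TIB153 (-0.66 ± 0.22, edgeR adjusted p = 0.060). These 3 were picked after their values were seen.

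Within a line there is no replicate, so a gene was called higher or lower where the ratio was at least 2-fold and its exact 95% binomial interval excluded no change. Such intervals cover counting error only. In CUTLL1, 8 of the 104 LINC genes were called higher with PKF118-310 and 10 lower. Over all tested genes 4.87% were called higher and 2.26% lower. Because a 2-fold call depends on read number, the same shares were taken over the 7578 genes of that read range, whose median was 346.5 reads against 128.5 for the LINC genes. There 7.67% were higher and 3.46% lower. The LINC share called higher (7.69%) thus lay at the share in that read range, and the share called lower (9.62%) lay above it. Of the 42 LINC genes whose span overlaps no other gene, 3 (7.14%) were called higher and 2 (4.76%) lower. Without the 2nd lanes 4 LINC genes were called higher, and without the 1st lanes 6 were called lower. The median log2 ratio was 0.21, against 0.0034 over all tested genes and 0.06 in that read range, with 65 of 104 above 0.

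Among the LINC genes higher in CUTLL1, LINC02453 had the largest ratio, with 18 counts in treated and 3 in control cells (log2 ratio 2.30, 95% interval 0.69 to 4.88). LINC02482 (2.08), LINC00963 (1.62), LINC01341 (1.62), LINC00467 (1.57) and LINC01355 (1.0) were also called. LINC01410 and LINC01772 were the 2 others, with under 20 counts in the pair of libraries. LINC01772 shares 27.9% of its exonic bases with a gene on the opposite strand, so its counts are uncertain. LINC00467 gave 30 counts with PKF118-310 and 9 in control CUTLL1, and 76 with PKF118-310 against 40 in control TIB153.

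Among those lower in CUTLL1, LINC00667 stood first by reads. It gave 41 counts with PKF118-310 and 156 in control CUTLL1, a log2 ratio of -2.03 (95% interval -2.58 to -1.54), with both treated lanes (22 and 19) under both control lanes (83 and 73). In TIB153 it gave 28 counts with PKF118-310 and 18 in control cells, and the interval of that ratio held 0. LINC00667 (chr18:5237825-5246508, plus strand) shares 25.3% of its exonic bases with genes on the opposite strand, so its counts are uncertain. LINC01226 gave 44 counts with PKF118-310 and 129 in control CUTLL1 (log2 ratio -1.65, interval -2.19 to -1.16), with -1.16 without the 1st lanes and -2.23 without the 2nd. LINC00664, LINC00847, LINC01237, LINC01238, LINC01521, LINC01659 and LINC01749 were lower by log2 ratios from -1.80 to -1.09. The 10th, LINC01163, had 0 counts in treated and 8 in control cells, at least 2.89-fold lower against a floor of 3 counts per library. LINC00664 gave a log2 ratio of -1.80 over both lanes and -0.50 without replicate 1 (the 1st lane).

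In TIB153, 20 LINC genes were called higher with PKF118-310 and 2 lower. Of all tested genes 5.70% were called higher and 2.16% lower, and of the 7578 genes in the LINC read range 9.13% and 3.05%. The LINC share called higher, 19.2%, was above both backgrounds, and the share called lower, 1.92%, lay near them. Of the 42 LINC genes without overlap, 6 (14.3%) were called higher. Without the 1st lanes 4 were called lower. The median log2 ratio of the LINC genes was 0.40, against -0.0049 over all tested genes and 0.09 over the genes of that read range. Beside this, the treated TIB153 library detected 22120 genes against 19719 in its control, and 416 LINC genes against 291. In CUTLL1 these were 21134 against 19674 genes and 362 against 285 LINC genes. The LINC genes with 1 to 39 reads gave 1032 counts with PKF118-310 and 543 in control TIB153, and all genes with 1 to 39 reads gave 32387 with PKF118-310 and 19787 in control TIB153. Mitochondrial transcripts took 5.06% of the counts of treated and 4.01% of control TIB153 cells. The part of this wider detection of low genes in the LINC ratios was not tested. Fewer or more cells expressing a gene and a change of its RNA per cell cannot be told apart in these bulk libraries.

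The 10 highest of the 20 by ratio, among those with at least 20 counts, were LINC00963 (2.48), LINC01232 (2.39), LINC01410 (2.20), LINC01012 (1.70), LINC01225 (1.68), LINC01115, LINC00921, LINC01659, LINC02482 and LINC00115, the last 5 of them with log2 ratios between 1.51 and 1.55. LINC01012 gave a log2 ratio of 2.48 without the 2nd lanes. LINC01225 gave 71 counts with PKF118-310 and 20 in control TIB153. In CUTLL1 it gave 13 counts with PKF118-310 and 23 in control cells, a ratio whose interval (-2.04 to 0.10) held 0. LINC00339 gave 113 counts with PKF118-310 and 41 in control TIB153 (log2 ratio 1.33, interval 0.81 to 1.89), and 59 with PKF118-310 against 51 in control CUTLL1. It shares 41% of its exonic bases with genes on the opposite strand and 18.0% with genes on the same strand, so its counts are uncertain. LINC00638 (VESTAR) gave 68 counts with PKF118-310 against 22 in control TIB153, and 21 with PKF118-310 against 17 in control CUTLL1. The 2 genes called lower were LINC00891, with 3 counts in treated and 24 in control TIB153 cells, and LINC01560, with 11 in treated and 25 in control cells.

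Both lines called LINC00963, LINC01341, LINC01355, LINC01410 and LINC02482 higher with PKF118-310. None of the LINC genes was called lower in both. The plot of treatment ratios shows the genes called higher in both lines to the upper right. The shares of all tested genes called higher or lower in both lines were not taken. Whether a ratio differed between the lines could not be tested with 1 library per group.

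**Figure D2:**
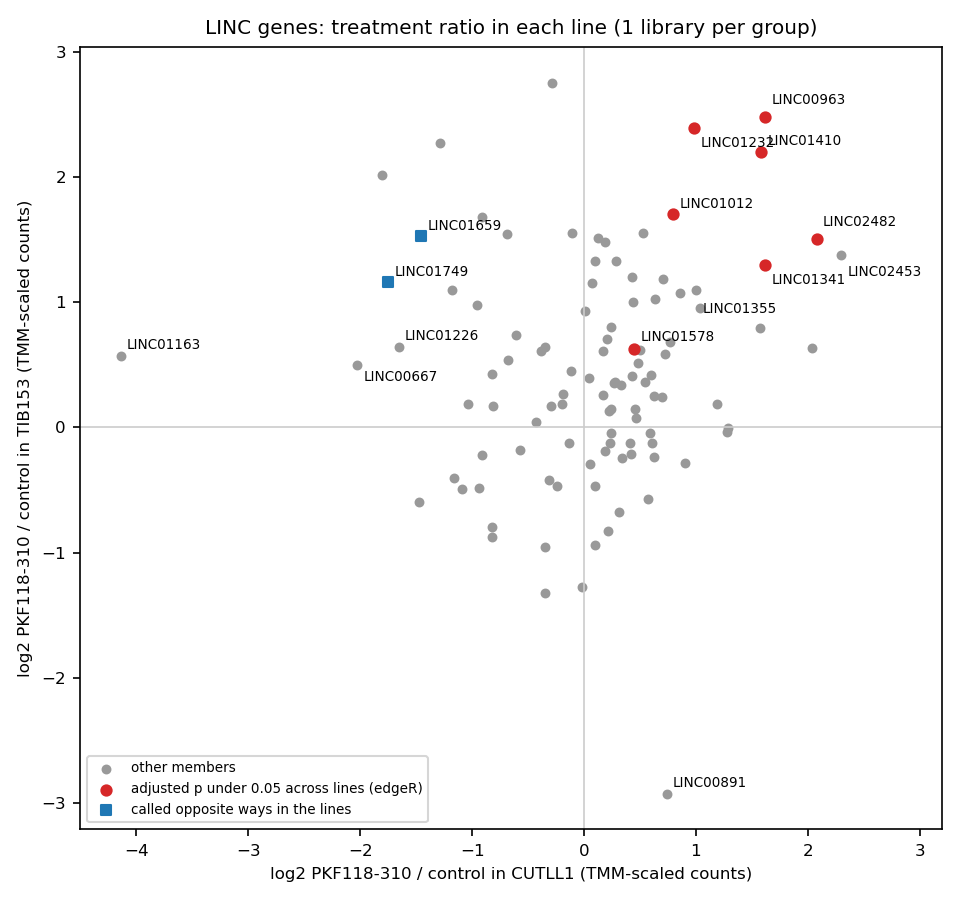
Log2 ratio of PKF118-310 over control for the 104 LINC genes, in CUTLL1 (x axis) and TIB153 (y axis), each point 1 gene and each axis from 1 library per group. Red points passed the test across lines, and blue squares (LINC01659 and LINC01749) were called in opposite directions; LINC00667 lies at -2.03 in CUTLL1 and 0.50 in TIB153, and LINC00891 lowest in TIB153 at -2.92.

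A pair of LINC genes was called in opposite directions by the lines. The share of all tested genes called so was not taken. LINC01749 gave 18 counts with PKF118-310 and 57 in control CUTLL1, but 25 with PKF118-310 against 10 in control TIB153. The log2 ratios were -1.75 (interval -2.63 to -0.99) and 1.16 (0.09 to 2.42). LINC01659 gave 6 counts with PKF118-310 against 16 in control CUTLL1, and 23 with PKF118-310 against 7 in control TIB153. LINC01226 gave 224 counts with PKF118-310 and 131 in control TIB153, a log2 ratio of 0.65 (interval 0.33 to 0.97), while it was called lower in CUTLL1. LINC01225 and LINC01226 are neighbors on chromosome 1, and both had lower counts in treated CUTLL1 and higher counts in treated TIB153. LINC01225 shares 7% of its exonic bases with LINC01226. LINC01226 shares 4% of its own with LINC01225 and the protein-coding gene TINAGL1 together.

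To place the LINC genes among other RNAs, genes with at least 40 reads were grouped by symbol and annotation. Antisense genes (symbols ending in AS and a number) were called higher in TIB153 in 38 of 211 cases (18.0%), and genes with only a clone name in 131 of 756 (17.3%), against 483 of 11402 protein-coding genes (4.24%). The LINC share was 19.2%. In CUTLL1 the shares called higher were 8.06% of antisense, 12.0% of clone-named and 4.27% of protein-coding genes. The shares called lower there were 0.948%, 2.65% and 1.99%, under the 9.62% of the LINC genes, while microRNA host genes lay above it at 20% (3 of 15). In TIB153, 1 of 15 microRNA host genes (6.67%) and 1 of 20 small nucleolar RNA host genes (5.0%) were called higher. Antisense genes gave a median log2 change across lines of 0.31, and clone-named genes of 0.26, beside the 0.24 of the LINC genes and -0.02 of protein-coding genes. These groups differ in read number, with medians of 128.5 reads for LINC, 143 for antisense, 89 for clone-named and 1278 for protein-coding genes, and the differences between groups were not tested.

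**Figure D3:**
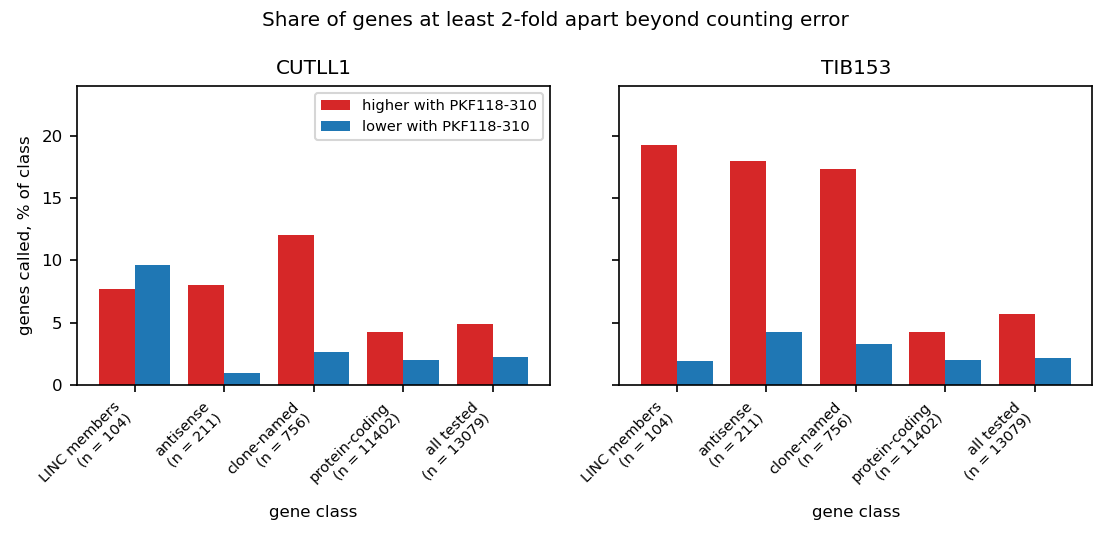
Percent of genes in each class called at least 2-fold higher (red) or lower (blue) with PKF118-310 beyond counting error, in CUTLL1 (left) and TIB153 (right), with the number of genes in brackets. The LINC genes have the tallest blue bar of the 5 classes drawn in CUTLL1 (9.62%) and, in TIB153, a red bar (19.2%) beside similar bars of antisense (18.0%) and clone-named genes (17.3%); microRNA and small nucleolar RNA host genes are not drawn.

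The control libraries were compared to show how the LINC genes differed between the lines themselves. CUTLL1 control was called higher than TIB153 control for 14 LINC genes and lower for 21. Over all tested genes 5.80% were higher and 9.07% lower, and over the genes of that read range 8.56% and 14.2%. The LINC shares of 13.5% and 20.2% were above both, though the LINC genes had fewer reads (median 128.5 against 346.5 in that range). Of the 42 LINC genes without overlap, 4 (9.52%) were called higher, near the 8.56% of that range, and 10 (23.8%) lower. Of the 35 genes, 32 had a ratio of the same sign between the treated libraries, which are separate libraries of the same lines, and 21 were called the same way there. The 35 were picked by their control ratio, and 6 and 5 of them had no more than 3 counts in TIB153 or CUTLL1 control. Such shares over all tested genes were not taken, so this is not shown to be particular to LINC genes. Between the treated libraries CUTLL1 was called higher for 9 LINC genes and lower for 27, where 6.51% and 10.0% of all tested genes were called. The 3 with the other sign were LINC00891, LINC01232 and LINC01749. Line, culture and library cannot be told apart here.

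The LINC genes of CUTLL1 included several with almost no reads in TIB153. LINC01248 (chr2:5602504-5691488, minus strand) gave 70 counts with PKF118-310 and 79 in control CUTLL1, and 3 with PKF118-310 against 0 in control TIB153. It was at least 27.3-fold higher in CUTLL1 control against a floor of 3 counts per library. It starts 1179 bases from the start of SOX11, a SOX-family transcription factor gene on the other strand, but SOX11 went the other way, with 36 counts in CUTLL1 control and 119 in TIB153 control. LINC01896 (chr18:78976554-78979074, minus strand) gave 24 counts with PKF118-310 and 36 in control CUTLL1, and 1 with PKF118-310 against 0 in control TIB153, at least 12.5-fold higher in CUTLL1 control. It starts 1201 bases from the start of SALL3, a zinc-finger transcription factor gene, which gave 407 counts with PKF118-310 against 652 in control CUTLL1, and 1 with PKF118-310 against 0 in control TIB153. So LINC01896 and SALL3 were both detected almost only in CUTLL1. LINC00461, the host gene of microRNA miR-9-2, gave 63 counts with PKF118-310 against 89 in control CUTLL1, but 4 with PKF118-310 and 2 in control cells of TIB153. LINC00847 (30 counts in CUTLL1 control and 0 in TIB153 control), LINC00664 (27 and 1) and LINC02575 (52 and 3) completed the genes with no more than 3 counts in TIB153 control. LINC00667 (156 and 18), LINC00884 (26 and 4), LINC01749 (57 and 10) and LINC01550 (197 and 58) were also among the 10 highest.

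LINC genes higher in TIB153 included LINC00051 on chromosome 8, with 2 counts in CUTLL1 control and 37 in TIB153 control, and LINC01120, with 2 and 34. Both were low in treated CUTLL1 as well (1 count each, against 23 and 20 in treated TIB153). LINC00304 gave 4 counts in CUTLL1 control and 38 in TIB153 control, but shares 29.7% of its exonic bases with the metabolic enzyme gene ACSF3 on the same strand and is uncertain. ACSF3 itself gave 1441 counts in CUTLL1 control and 2088 in TIB153 control. LINC00426 gave 62 counts in CUTLL1 control and 234 in TIB153 control, the most reads of the 10 genes named here. LINC00467 (9 and 40), LINC01366 (16 and 65), LINC01679 (4 and 22), LINC01801 (5 and 22), LINC02611 (32 and 130) and LINC00891 (7 and 24) were the others of the 10 lowest ratios with at least 20 counts.

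**Figure D4:**
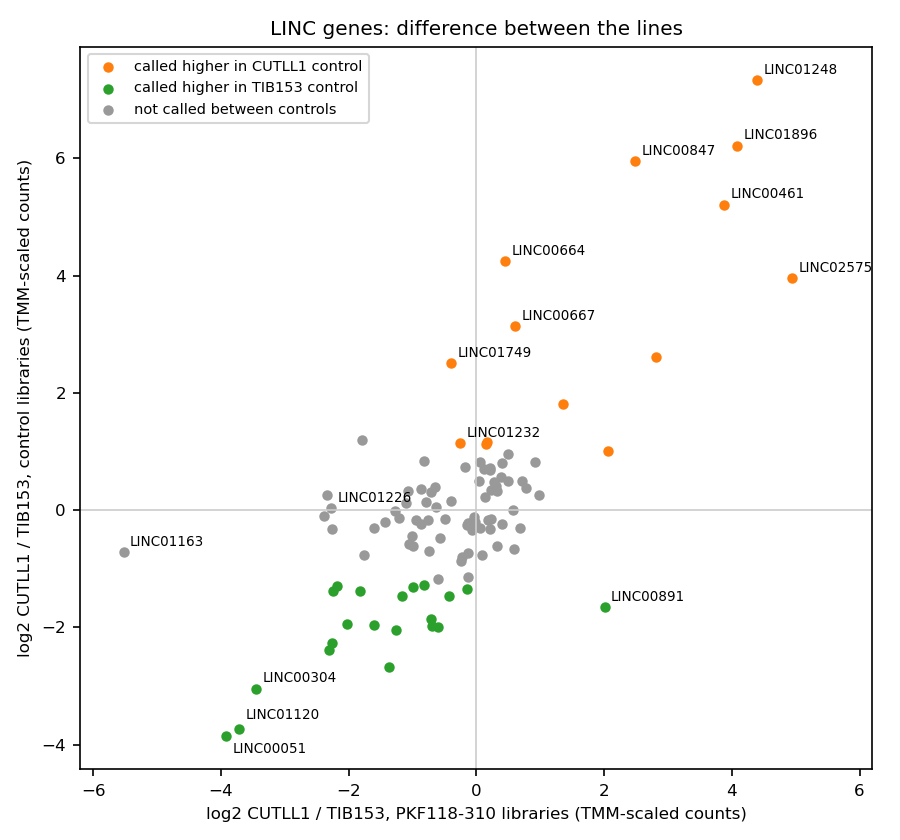
Log2 ratio of CUTLL1 over TIB153 for the 104 LINC genes, between the PKF118-310 libraries (x axis) and between the control libraries (y axis), each point 1 gene. Orange genes were called higher in CUTLL1 control and green genes higher in TIB153 control; of these 35, 32 keep the sign of their ratio in the treated libraries, and LINC00891 stands apart at 2.01 and -1.66.

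By position, 67 of the 98 LINC genes whose coordinates matched the annotation were of the intergenic type, 9 antisense, 12 processed transcripts, 2 bidirectional promoter RNAs, 7 transcribed pseudogenes, and 1 protein-coding. The remaining 6 had no coordinate match. In RefSeq 19 of the 104 carry another symbol, and 2 of these, SMIM45 (LINC00634) and LASP1NB (LINC00672), are protein-coding there. The median span was 9.82 kb. The span of 42 genes overlapped no other gene. Same-strand sharing of exonic bases with other genes was found for 18 LINC genes, above 25% in 3 of them, and opposite-strand sharing for 29, above 25% in 5.

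A start within 2000 bases upstream of the start of a protein-coding gene on the other strand, or up to 500 bases inside it, was found for 17 LINC genes, and all 17 partners were measured. The log2 ratios of LINC gene and partner had the same sign in 11 of the 17 pairs in CUTLL1, in 9 in TIB153 and in 12 between the controls. Of the partners, 4 (23.5%) rose across the lines by edgeR and 0 fell, where 6.25% of all tested genes rose and 6.90% fell. The 4 were POFUT2, an O-fucosyltransferase gene next to LINC00205, KMT2E next to LINC01004, RNF32 next to LINC01006, and SOX11 next to LINC01248. None of those 4 LINC genes passed the test. LINC00205 gave 246 counts with PKF118-310 and 151 in control CUTLL1, but 304 with PKF118-310 against 287 in control TIB153, while POFUT2 gave 353 with PKF118-310 against 215 in control CUTLL1 and 380 with PKF118-310 against 215 in control TIB153. LINC01521, called lower in CUTLL1 (11 counts with PKF118-310 and 29 in control), lies beside the zinc-finger gene PATZ1, which gave 594 counts with PKF118-310 and 575 in control CUTLL1. Over the 78 pairs with a measured nearest protein-coding gene, the signs were the same in 43 in CUTLL1, 38 in TIB153 and 43 between the controls. In 8 of these 78 pairs (10.3%) the neighbor rose across the lines by edgeR, and in 5 it fell. SAMD11 counts here for both LINC00115 and LINC01128. POFUT2, KMT2E, RNF32 and SOX11 are counted again, so this share is not separate from the one above. The nearest gene lay up to 1411 kb away. Among 20 pairs with a measured gene upstream on the same strand within 20 kb, it rose in 0 and fell in 2.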

How the data were processed

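The authors deposited lane files of raw read counts for 57189 genes. HISAT2, HTSeq, DESeq2 and build hg38 are named in the submitters' processing notes, without versions or roles, and how strand was set in counting was not given there. The kit was a stranded mRNA kit after poly(T) selection. The 2 lanes of a library were summed, which gave 4 libraries from 8 files (7971771, 7609427, 8140391 and 7792377 counts for treated CUTLL1, control CUTLL1, treated TIB153 and control TIB153). A gene with 3 counts lay at 0.369 to 0.394 CPM. The authors also deposited 2 comparison tables with fold changes and p-values for selected genes. They were not used, and their 8 count columns could not be tied to samples by the labels.

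Counts were scaled by TMM. Ratios within a line and between lines used a pseudocount of 0.5 counts, and a call needed 2-fold and an exact binomial 95% interval excluding no change. Across lines, edgeR's quasi-likelihood test (robust) had line as a block, 1 residual degree of freedom and a median of 12.7 prior degrees of freedom, so its p-values rest mostly on a spread pooled over genes. They measure the spread between these libraries. Adjustment was by Benjamini-Hochberg over 13079 genes. Software was edgeR 4.0.16, DESeq2 1.42.0 and limma 3.58.1 in R 4.3.3, and scipy 1.17.1 in Python 3.11.15. Scripts were tested on simulated data.

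Coordinates matched GENCODE release 29 within 1 base for 99.5% of tested genes. Promoters and symbols came from RefSeq. The members, lists and tests were chosen with earlier results of these data known. Named genes were those with adjusted p under 0.05 across lines, up to 10 called genes per direction with at least 20 counts in a pair of libraries, the 10 highest levels, genes called in opposite directions, and those next to the minimum of 40. Of 5 LINC symbols listed for known small proteins, 0 occur in the files under those symbols. Alternatives were other scaling, filters, pseudocount, fold limit, DESeq2, no block, and leaving out a lane.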

Additional observations from a re-analysis of the deposited data

Results flagged for a closer look

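The ratio of PKF118-310 over control went opposite ways in the lines, beyond counting error in each, for 5 LINC genes. With 1 library per group the difference was not tested. The share of all tested genes that did so was not taken. In CUTLL1, 23.7% of all tested genes had an interval above 0 and 24.3% below it, and in TIB153 25.7% and 29.2%. The log2 ratio in CUTLL1 minus that in TIB153 was -2.98 for LINC01659, -2.91 for LINC01749 and -2.30 for LINC01226, which were lower with PKF118-310 in CUTLL1 and higher in TIB153. It was -1.0 for LINC01215, with 217 counts with PKF118-310 and 262 in control CUTLL1, and 202 with PKF118-310 against 121 in control TIB153. LINC00426 differed the other way by 1.14, with 100 counts with PKF118-310 against 62 in control CUTLL1 and 172 with PKF118-310 against 234 in control TIB153.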

How the results depend on the processing

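Across lines, 7 LINC genes rose and 0 fell. With DESeq2 size factors, library totals or filterByExpr these counts stayed within 1.5 times. Without a count filter 3 fell. DESeq2's Wald test called 0 rises (4 higher at an unadjusted p under 0.05). The label replicates are lanes of 1 library, so the block was the line. Leaving out this replicate block (the line) gave 0 rises (edgeR; 3 LINC genes higher and 0 lower at an unadjusted p under 0.05). Leaving out a lane gave 2 to 8 rises and 0 to 1 falls.

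In CUTLL1 (8 higher, 10 lower), a 1.5-fold limit gave 16 higher. LINC genes with at least 80 reads (66 genes) gave 4 higher and 6 lower, and the 42 overlapping no other gene gave 3 and 2. In TIB153 (20 higher, 2 lower), a 1.5-fold limit gave 7 lower, the 80-read minimum 12 higher and 0 lower, and genes without overlap 6 higher. Between controls (14 higher, 21 lower in CUTLL1), the 80-read minimum gave 9 and 12, and genes without overlap 4 and 10. The last 2 settings hold fewer genes. Leaving out a lane gave 4 to 6 higher and 6 to 8 lower in CUTLL1, 14 to 16 higher and 3 to 4 lower in TIB153, and 14 higher and 14 to 16 lower between controls.

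With 1 library per group, intervals within a line cover counting error only, and a gene with 40 reads over the libraries is called only at a large ratio. A miss of the threshold does not show that a LINC gene kept its level.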

Other observations

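The 478 LINC genes with fewer than 40 reads entered no comparison. Together they gave 765 counts with PKF118-310 and 550 in control CUTLL1, and 1032 with PKF118-310 against 543 in control TIB153, a ratio of 1.39 and 1.90 on raw counts. Over all 13504 genes with 1 to 39 reads the ratios were 1.34 and 1.64. The 104 genes above the minimum gave 1.10 and 1.26.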
